A study of Mus musculus with 12 samples.

Results

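The comparison described here is the difference, between colon and small intestine, in how gut stromal cells that express an Rspo3 reporter differ from those that do not. It was taken over 12 of the 12 libraries of the series, in 4 groups of 3 chosen from the sample titles, and over 16757 tested genes of 32052 in the count table. The groups were small intestinal stromal cells negative for Rspo3-GFP, small intestinal stromal cells positive for it, and the corresponding negative and positive colonic stromal cells. All 4 groups came from C57Bl6 mice of 8 to 12 weeks and were gated as negative for the epithelial protein EPCAM and the leukocyte protein CD45. The labels describe Rspo3-GFP as a transgene whose expression defines the sort, and do not say whether replicates are separate animals, so the p-values cover the spread between these libraries, part of which may be technical. A GFP-positive population is a mixture by construction, because any stromal cell type that expresses the reporter enters it. Cells sorted on CD31, which the design text also names, are not analysed here.

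Within each region the GFP effect is the log2 ratio of GFP-positive to GFP-negative cells. The interaction is the GFP effect in colon minus the GFP effect in small intestine, so a positive value (called higher) means a larger or less negative effect in colon, and a negative value (called lower) a smaller or more negative one. A gene was called when edgeR's quasi-likelihood test gave a Benjamini-Hochberg adjusted p under 0.05 over all tested genes, and "rose" or "fell" is used of a GFP effect that passed the same test. Levels are given as CPM, counts scaled to library size with a correction for composition. Each ± value is an approximate standard error (SE) from the fit to all 12 libraries. It is the absolute log2 value divided by the square root of the test's F statistic, and is least reliable near 0 counts.

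Crypt stem cells depend on Wnt signals, which R-spondins amplify by protecting the Wnt receptors of the cell surface from removal. Fibroblasts beneath the crypts make R-spondins and BMP antagonists such as Gremlin 1, whereas subepithelial telocytes, flat mesenchymal cells under the epithelium, make BMPs and non-canonical Wnts that oppose stem cell renewal. Lymphatic endothelium is another stromal source of R-spondin 3. The small intestine has villi with lymphatic lacteals and the colon has a flat surface, so each region offers a different arrangement of these cells around the crypt.

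The libraries held 6489835 to 12286054 counts and 18933 to 23338 detected genes, and their mitochondrial rRNA share was 5.35% to 12.7%. It was 12.7%, 9.73% and 12.6% in small intestinal GFP-negative and 5.35%, 7.92% and 6.10% in small intestinal GFP-positive libraries. In colon it was 5.83% to 9.04%. Protein coding genes took 73.2%, 76.1% and 65.9% of counts in small intestinal GFP-negative libraries and 78.9% to 83.9% in the other groups. The effect of this on the interaction was not tested. Replicates of the small intestine differed more among themselves than those of the colon, and a fit that estimated 1 precision weight per region, chosen after seeing the data, gave mean weights of 0.565 for small intestine and 1.77 for colon. One small intestinal GFP-negative library (replicate 3) had leukocyte markers summing to 1119.8 CPM against 10.5 to 45.8 CPM in the other 11, and B and plasma cell markers at 40241 CPM. Without it, 414 genes were called, 264 higher and 150 lower. Rspo3, which should follow the sort, climbed in small intestine from 8.78, 13.7 and 4.50 CPM without GFP to 196, 191 and 192 CPM with it, and in colon from 2.49, 6.51 and 2.28 to 161, 117 and 119 CPM. Its level followed the GFP label in every library, and its GFP effects of 4.40 and 5.11 gave an interaction of 0.71 ± 0.55 with an adjusted p of 0.650.

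The GFP effect differed between the regions for 345 genes (2.06% of those tested), of which 195 (1.16%) were higher and 150 (0.895%) lower in colon. Protein coding genes made up 340 of the 345. At an unadjusted p under 0.05 there were 2430 genes, 14.5% of those tested, the share against which such counts in the lists are to be read. The higher genes included Rasgrf2, St8sia6, Clca3a1, Apob and Krt8, and the lower genes Wnt2, Wnt5a, Bmp3, Cxcl13 and Fgf7. Sizes were larger in the higher set, with a median log2 interaction of 4.33 (0.96 to 10.98), than in the lower set, with a median of -2.25 (-6.80 to -1.09). Over all tested genes the median was 0.04. Where both GFP effects were called, in 570 genes, 545 moved in the same direction in both regions and 25 in opposite directions.

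The count of calls leaned on single libraries. Leaving out 1 library at a time gave 145 calls without small intestine GFP-negative replicate 1, 111 without GFP-positive replicate 1, 1044 without GFP-negative replicate 2 and 117 without GFP-positive replicate 3 of that region. In colon it gave 223, 69 and 72 calls without GFP-negative replicates 1, 2 and 3, and 98 and 165 without GFP-positive replicates 2 and 3. Of the 345 genes, 59 were called in all 12 such fits, among them Wnt2, Wnt5a, Fgf7, Pdgfc, Cxcl13, Osr1, Ahrr, Rasgrf2 and Clca3a1. The main fit ignores any pairing of libraries. With a replicate block for the number within each region, 201 of the 345 stayed called. Of the 75 called named genes 19 were lost, among them Bmp2, Bmp4, Bmp5, Wnt5b, Hgf and Mmp3, and all 19 are listed under the dependence on processing.

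**Figure D1:**
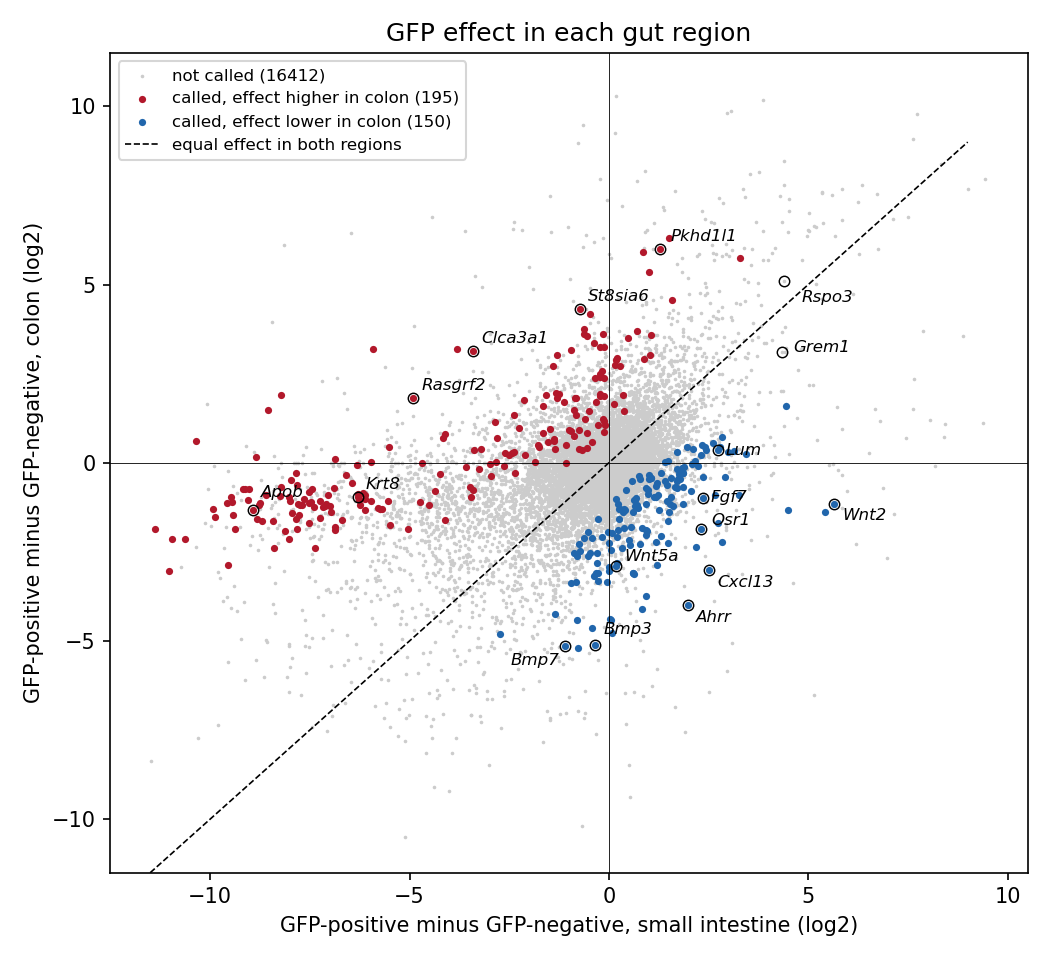
The GFP effect in colon (vertical, log2) is plotted against that in small intestine (horizontal, log2) for the 16757 tested genes, with 195 called higher in red, 150 called lower in blue and named genes circled. Rspo3 and Grem1 lie near the dashed line of equal effects, Wnt2 and Cxcl13 far below it, and a band of red points with strongly negative small intestinal effects far above it.

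The called genes fell into a few shapes, set against all tested genes, of which 4.24% rose and 6.63% fell with GFP in small intestine and 4.62% rose and 4.06% fell in colon. Of the 195 higher genes, 122 fell with GFP in small intestine and had no called effect in colon, 53 rose in colon and had no called effect in small intestine, and 11 fell in small intestine and rose in colon. Another 7 fell in both regions and 2 rose in both. Of the 150 lower genes, 72 fell in colon with no called effect in small intestine, 59 rose in small intestine with no called effect in colon, and 14 rose in small intestine and fell in colon. Of the rest, 2 fell in both regions, 1 rose in both and 2 had neither effect called.

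The GFP-positive and GFP-negative libraries did not overlap for 21.9% of all tested genes in small intestine and 35.6% in colon. A single group often stood apart from the other 9 libraries. That held for 178 of the 195 higher and 132 of the 150 lower genes, and for 20.9% of all tested genes. A called interaction itself favours such a layout, so these counts only describe the form of the calls. Shares of all tested genes are in brackets. For 97 higher genes the small intestinal GFP-positive libraries lay below the rest (3.11%), and for 38 the colonic GFP-positive libraries lay above (3.34%). For 45 lower genes the colonic GFP-positive libraries lay below the rest (2.38%). For 33 the colonic GFP-negative libraries lay above (3.41%), and for 31 the small intestinal GFP-positive libraries lay above (2.15%). All 34 called genes without a single count in one group lacked it in small intestinal GFP-positive cells, and their fitted sizes depend on the prior count.

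**Figure D2:**
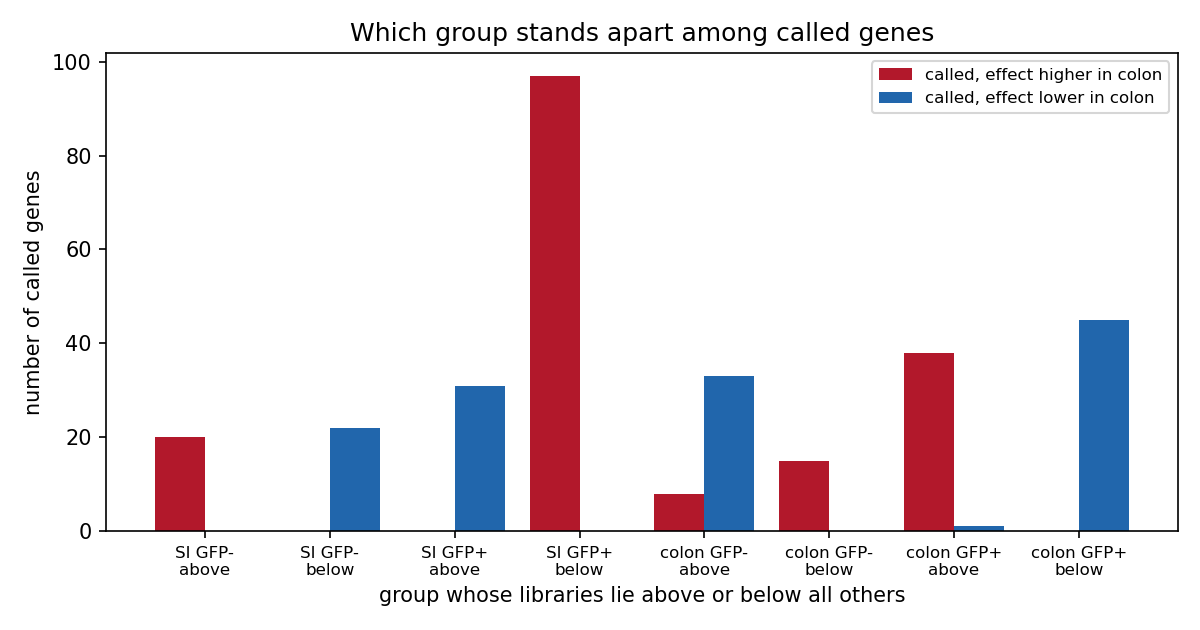
Bars give the number of called genes for which all 3 libraries of 1 group lay above or below the other 9 (SI, small intestine), with genes called higher in red and lower in blue. The tallest bar, 97 higher genes, belongs to small intestinal GFP-positive libraries lying below, and the tallest blue bar, 45 genes, to colonic GFP-positive libraries lying below.

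Sequence upstream of the start site is shown for 3 of the 4 named genes with the lowest interaction values, Wnt2, Ahrr and Cxcl13, because their promoters differ in the short motifs they hold. The windows are RefSeq promoters of the GRCm38.p6 build, chr6:18030446-18030695 on the minus strand for Wnt2, chr5:95956689-95956938 on the plus strand for Cxcl13 and chr13:74292332-74292581 on the minus strand for Ahrr. Each run ends at the base before the RefSeq start site, and capitals mark the motif. By the gene coordinates given below, Wnt2 starts farther upstream. The end of its run, with the second marked stretch, therefore lies inside that annotated gene.
Wnt2: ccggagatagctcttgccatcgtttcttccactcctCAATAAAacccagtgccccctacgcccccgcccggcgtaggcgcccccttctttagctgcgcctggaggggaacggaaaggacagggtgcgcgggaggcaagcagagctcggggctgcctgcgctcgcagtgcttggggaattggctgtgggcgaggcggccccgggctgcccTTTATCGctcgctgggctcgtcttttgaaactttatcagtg
Cxcl13: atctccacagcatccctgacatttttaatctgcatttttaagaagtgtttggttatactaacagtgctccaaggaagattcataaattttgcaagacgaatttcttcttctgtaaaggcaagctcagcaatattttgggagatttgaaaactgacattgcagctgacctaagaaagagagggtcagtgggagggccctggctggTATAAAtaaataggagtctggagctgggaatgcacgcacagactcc
Ahrr: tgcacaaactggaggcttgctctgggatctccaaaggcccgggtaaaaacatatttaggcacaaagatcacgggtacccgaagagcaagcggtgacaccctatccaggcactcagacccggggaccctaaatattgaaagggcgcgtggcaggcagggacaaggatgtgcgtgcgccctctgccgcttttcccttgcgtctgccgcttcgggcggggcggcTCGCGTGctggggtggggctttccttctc
In Wnt2 the capitals mark the CDX letters TTTATNG on either strand, in Cxcl13 the TATA box letters TATAAA, 46 bases before the start, and in Ahrr the dioxin response element letters TNGCGTG, 29 bases before the start. These letters were searched on both strands in windows of 300 bases, the 250 before and 50 after each start, for 11190 tested genes with a matched promoter, 146 of them called higher and 105 lower. The CDX letters were in 7.28% of all windows, 6.85% of the higher and 10.5% of the lower genes, and the dioxin response letters in 7.94%, 6.85% and 6.67%. TATAAA was in 7.61% of all windows, 14.4% of the higher and 8.57% of the lower genes, and the ETS letters CCGGAAGT in 7.79% of all windows, 1.37% of the higher and 0% of the lower genes. These shares are descriptions of letters and not of bound sites.

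Among the Wnt ligands, 3 of 10 tested genes were lower and 0 higher, with a median interaction of -2.17. In edgeR 7 of the 10 had an unadjusted p under 0.05, against 14.5% of all tested genes. Wnt2, a canonical ligand (gene at chr6:17988940-18030585, GRCm38), had the lowest value of all named genes. It lay at 0.84, 0.94 and 0.64 CPM without GFP and 33.8, 80.4 and 11.58 CPM with GFP in small intestine, but at 5.13, 5.94 and 4.18 against 1.65, 2.38 and 2.86 CPM in colon. The small intestinal GFP-positive libraries were the high ones and did not overlap any other group, and the interaction was -6.80 ± 0.84 with an adjusted p of 0.00311. It did not pass in the limma-voom fits or on the deposited log2 TPM values.

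Wnt5a, a non-canonical ligand of villus and crypt-top mesenchyme, differed through the other arm of the contrast. Its levels were 29.7, 41.8 and 30.7 against 37.1, 24.4 and 53.5 CPM in small intestine, and 133, 129 and 137 against 18.4, 17.3 and 18.4 CPM in colon. The small intestinal groups overlapped while the colonic groups lay far apart, giving an interaction of -3.05 ± 0.35 (adjusted p 0.00247). Wnt5a did not pass on the deposited log2 TPM values (adjusted p 0.216 with limma). Wnt5b, its close relative, showed the same layout at lower levels, with 2.04 to 6.99 CPM in the 6 small intestinal libraries and 28.7, 32.7 and 30.1 against 6.59, 1.72 and 4.69 CPM in colon, and its interaction was -3.02 ± 0.70 (adjusted p 0.0474).

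The remaining Wnt ligands did not pass in the main edgeR fit. Wnt4 fell with GFP in both regions and had an interaction of -1.85 ± 0.47 (adjusted p 0.0664). It passed in 5 of 13 other fits, among them DESeq2 (adjusted p 0.0107) and limma on log2 TPM (adjusted p 0.0173). Wnt2b, the main canonical ligand of R-spondin producing fibroblasts, had means of 121 and 340 CPM in small intestine and 169 and 192 CPM in colon. Its interaction was -1.30 ± 0.53 (adjusted p 0.276). The R-spondins and their receptors gave 0 calls of 7 in edgeR, with 1 at an unadjusted p under 0.05. Rspo1 was at 2.65, 1.57 and 3.54 against 16.2, 12.9 and 21.4 CPM in small intestine and at 1.32 to 4.80 CPM in the 6 colonic libraries (interaction -2.35 ± 0.68, adjusted p 0.0983), while Rspo2 had GFP effects of 3.08 and 3.39. Secreted Wnt antagonists gave 0 calls of 9 and Wnt feedback targets 0 of 10 in edgeR, with 4 members of each at an unadjusted p under 0.05. DESeq2 called 1 member of each of these 3 lists, lower in each case. The call of Wnt5b held in 4 of the 12 fits that left out 1 library (adjusted p 0.130 without colon GFP-negative replicate 2).

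Many BMP ligands hold back stem cell renewal and drive differentiation, and several moved with GFP in colon far more than in small intestine. Of 10 tested members of the BMP and GDF list, which includes the protease gene Bmp1, 5 were lower and 0 higher. The median interaction was -1.91. Bmp3 (chr5:98854415-98884396) lay at 12.1, 24.6 and 18.8 against 7.65, 7.98 and 28.2 CPM in small intestine, and at 170, 173 and 175 against 1.87, 6.07 and 7.09 CPM in colon. The small intestinal groups overlapped and the colonic ones did not, with an interaction of -4.75 ± 0.79 (adjusted p 0.0180).

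Bmp7 (chr2:172868012-172940321) followed the same layout, from 10.8, 33.0 and 26.5 to 6.57, 7.49 and 19.0 CPM in small intestine and from 119, 106 and 110 to 1.54, 3.30 and 4.69 CPM in colon (interaction -4.04 ± 0.71, adjusted p 0.0196). Bmp5 fell from a mean of 406 to 21.5 CPM in colon against means of 79.3 and 31.2 CPM in small intestine (-2.89 ± 0.64), Bmp2 from 146 to 34.8 CPM against 35.4 and 40.7 CPM (-2.27 ± 0.50) and Bmp4 from 456 to 106 CPM against 138 and 104 CPM (-1.69 ± 0.38), with adjusted p of 0.0432, 0.0413 and 0.0425. In each of these 5 genes the colonic GFP-negative cells held the highest level of the 4 groups. The calls of Bmp2, Bmp4 and Bmp5 held in 3, 2 and 2 of the 12 fits that left out 1 library, with adjusted p of up to 0.122, and without colon GFP-negative replicate 2 the list had 0 lower calls.

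Bmp3, Bmp5, Bmp7, Wnt5a and Wnt5b are also on the telocyte list, so its calls largely repeat theirs. Of 16 subepithelial telocyte markers, 6 were lower and 0 higher (median -2.16): these ligands and Pdgfra, a receptor for platelet-derived growth factor. The summed markers, these ligands included, were at 808 to 1688 CPM in small intestinal GFP-negative and 828 to 1662 CPM in GFP-positive cells. In colon they were at 2595 to 2811 CPM in GFP-negative and 630.2 to 666 CPM in GFP-positive cells. The defining factor Foxl1 had an interaction of -2.34 that did not pass (adjusted p 0.420). In such bulk libraries fewer telocytes and less RNA per telocyte cannot be told apart, and the count ranged from 1 to 8 over the fits that left out 1 library, lowest without colon GFP-negative replicate 2.

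**Figure D3:**
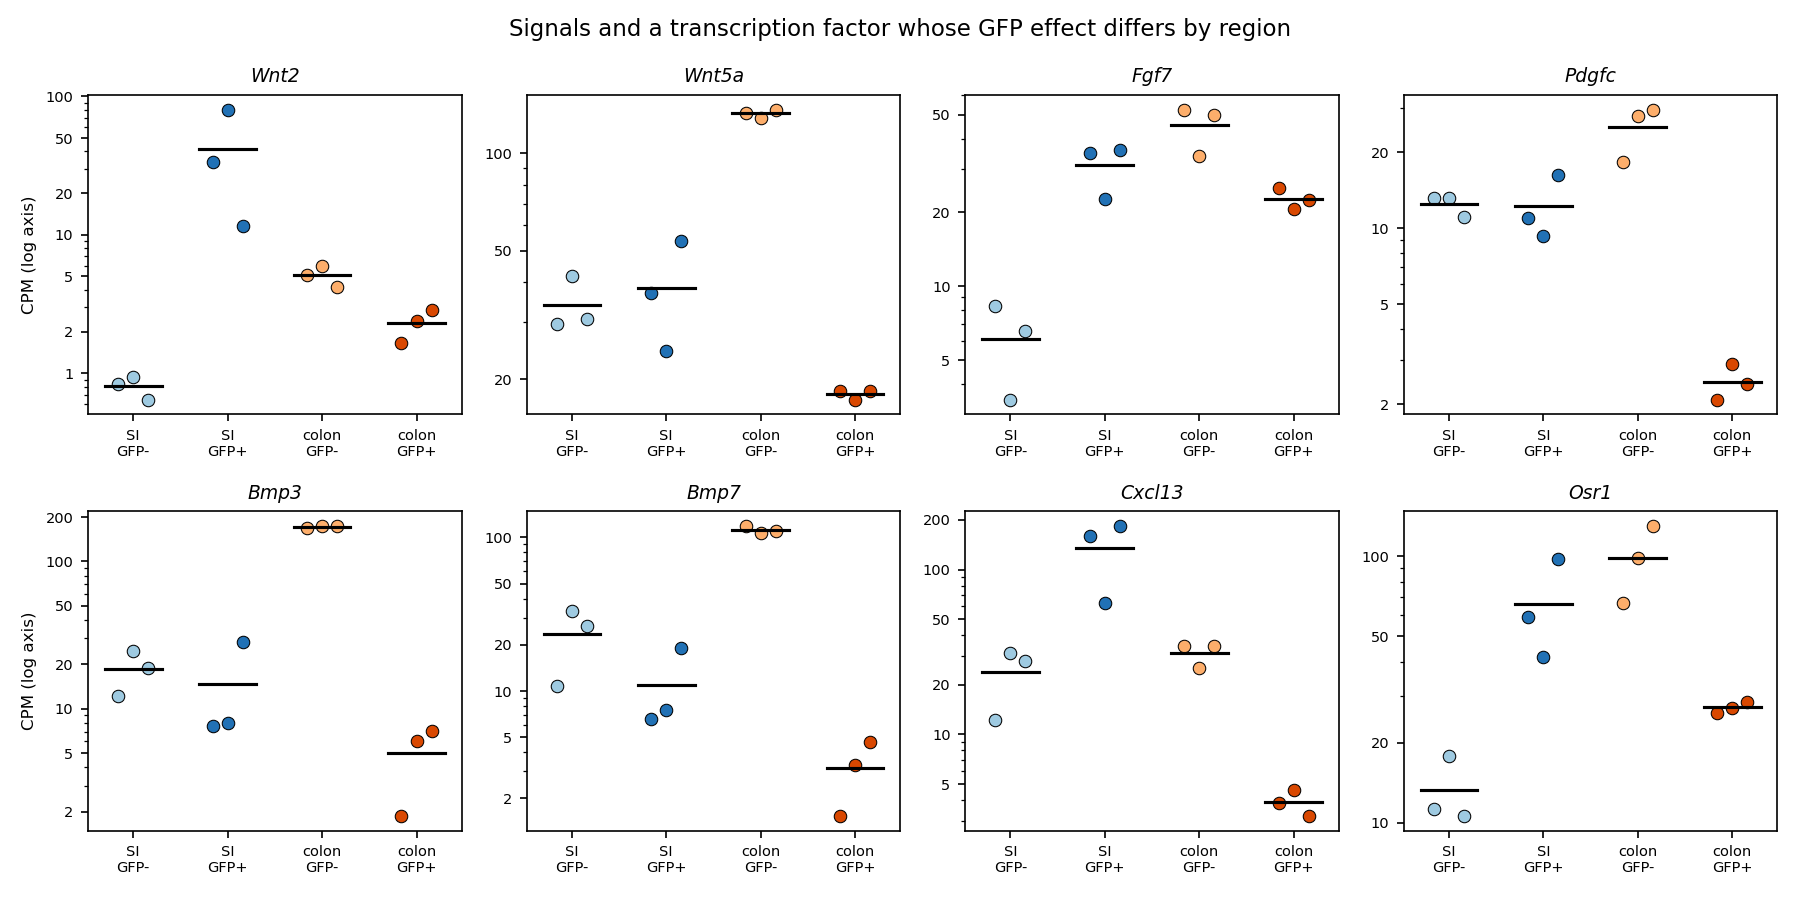
With SI for small intestine, each point is 1 library and each bar the mean of 3, with CPM on a log axis for Wnt2, Wnt5a, Fgf7, Pdgfc, Bmp3, Bmp7, Cxcl13 and Osr1. Wnt5a, Pdgfc, Bmp3 and Bmp7 drop with GFP in colon while their small intestinal groups overlap, and Wnt2, Fgf7, Cxcl13 and Osr1 climb with GFP in small intestine.

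BMP antagonists gave fewer calls but leaned the same way. Of 12 tested members 1 was lower and 0 higher, and all 12 values were below 0 (median -1.08). In edgeR 4 had an unadjusted p under 0.05, against 14.5% of all tested genes. Over the fits that left out 1 library the list had 0 to 5 lower calls. Grem1, the antagonist that marks R-spondin producing fibroblasts, lay at 43.6, 76.4 and 31.4 against 1033, 538 and 1534 CPM in small intestine and at 79.4, 88.1 and 113 against 872, 788 and 762 CPM in colon. It rose with GFP in both regions, and its interaction of -1.25 ± 0.52 did not pass (adjusted p 0.280). The call belonged to Twsg1, a BMP-binding protein, with means of 115 and 130 CPM in small intestine and 281 and 139 CPM in colon (-1.19 ± 0.28, adjusted p 0.0462), and it held in 2 of the 12 fits that left out 1 library, reaching an adjusted p of 0.132 without colon GFP-negative replicate 2. Among 10 BMP targets 1 was lower, the receptor-regulated Smad9, at 6.73 to 10.1 CPM in the 6 small intestinal libraries and 22.1, 24.9 and 30.5 against 3.08, 3.43 and 4.46 CPM in colon (-2.53 ± 0.37, adjusted p 0.00631). The direct targets Id1, Id2, Id3 and Id4 had values from -0.34 to 0.83 and did not pass.

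Other growth factors that stroma supplies to epithelium and vessels were lower in 3 of 24 cases and higher in 0. In edgeR 10 of the 24 had an unadjusted p under 0.05. DESeq2 also called Ptn and Pdgfb higher (adjusted p 0.0128 and 0.0185) and Inhba lower (adjusted p 0.0249). In the FGF list 1 of 7 tested members was lower and 0 higher. Fgf7, the keratinocyte growth factor, lay at 8.30, 3.45 and 6.59 against 34.9, 22.8 and 35.8 CPM in small intestine, and at 52.5, 33.9 and 49.8 against 25.2, 20.7 and 22.4 CPM in colon. It was lowest in small intestinal GFP-negative cells, rose with GFP there, and had an interaction of -3.35 ± 0.44 (adjusted p 0.00408). Pdgfc, a ligand of Pdgfra, was at 9.26 to 16.3 CPM in the 6 small intestinal libraries and at 18.3, 27.8 and 29.5 against 2.09, 2.91 and 2.40 CPM in colon (-3.32 ± 0.42, adjusted p 0.00335).

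Angpt1, a ligand of the endothelial receptor Tek, had means of 10.02 and 29.4 CPM in small intestine and 25.4 and 13.1 CPM in colon (-2.50 ± 0.52, adjusted p 0.0314). Hgf, hepatocyte growth factor, had 34.7 and 20.06 CPM in small intestine and 96.4 and 15.7 CPM in colon (-1.83 ± 0.42, adjusted p 0.0453). Their calls held in 5 and 3 of the 12 fits that left out 1 library, with adjusted p of 0.0891 without colon GFP-positive replicate 2 for Angpt1 and 0.136 without colon GFP-negative replicate 3 for Hgf. EGF family ligands gave 0 calls of 8 in edgeR, with 4 at an unadjusted p under 0.05, and 1 in DESeq2. Among them Nrg1 had means of 19.2 and 4.08 CPM in small intestine and 100.04 and 2.46 CPM in colon (-3.12 ± 1.20, adjusted p 0.256) and Ereg an interaction of -1.96 ± 0.51 (adjusted p 0.0708).

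Some fibroblast and matrix genes were lower. Of 14 general fibroblast markers 5 were lower and 0 higher (median -1.39), and of 30 collagens 7 were lower and 0 higher (median -1.42). Lum, the matrix proteoglycan lumican, lay at 95.6, 268 and 144 against 939, 879 and 1547 CPM in small intestine and at 302, 466 and 346 against 429, 536 and 452 CPM in colon (-2.38 ± 0.49, adjusted p 0.0297). Fbln1, a basement membrane glycoprotein, rose from 319.6, 1377 and 393 to 2756, 3604 and 4460 CPM in small intestine against 986, 1088 and 1046 and then 787, 828 and 760.2 CPM in colon (-2.77 ± 0.63, adjusted p 0.0433). Both were highest in small intestinal GFP-positive cells.

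The fibrillar collagen chain Col1a2 shared this pattern, with means of 2090 and 7158 CPM in small intestine and 4229 and 3084 CPM in colon (-2.23 ± 0.50, adjusted p 0.0425). The basement membrane chains Col4a5 and Col4a6, neighbours on the X chromosome, were instead highest in colonic GFP-negative cells. Col4a6 lay at 10.8 to 25.4 CPM in the 6 small intestinal libraries and at 124, 129 and 102 against 12.1, 10.96 and 20.5 CPM in colon (-3.03 ± 0.51, adjusted p 0.0153), and Col4a5 had an interaction of -2.87 ± 0.46 (adjusted p 0.0109). Col15a1, a chain of the vessel-associated matrix, had means of 551 and 445 CPM in small intestine and 897 and 155 CPM in colon (-2.22 ± 0.41, adjusted p 0.0196), and Col5a2 an interaction of -2.10 ± 0.41 (adjusted p 0.0252). Over the 12 fits that left out 1 library, Fbln1 and Col1a2 were each called in 1, Lum in 4, Col5a2 in 5, Col15a1 in 9, Col4a6 in 11 and Col4a5 in 12, and all but Col4a5 were lost without colon GFP-negative replicate 2, at adjusted p of 0.0504 to 0.122. The fibroblast list had 0 to 11 lower calls, with 0 in 8 of the fits, and the collagens 1 to 13.

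The summed fibroblast markers stood at 12163 to 31067 CPM in small intestinal GFP-negative, 45976 to 69890.3 CPM in GFP-positive, 35916 to 39735 CPM in colonic GFP-negative and 27023 to 32308 CPM in colonic GFP-positive cells. The colonic groups thus did not overlap and the GFP-positive one was the lower, opposite to small intestine. Of 17 matrix proteases and inhibitors 1 was lower, Mmp3 (stromelysin), which lay at 16.2, 37.1 and 12.9 against 160, 122 and 176 CPM in small intestine and at 11.02 to 19.1 CPM in the 6 colonic libraries (-2.35 ± 0.47, adjusted p 0.0253). Its call held in 5 of 12 fits (adjusted p 0.0797 without colon GFP-negative replicate 2), and the list had 0 to 8 lower calls. Of 14 trophocyte markers, the genes of crypt-base fibroblasts, 1 was lower (Col15a1) and 1 higher, the surface peptidase Dpp4 at 23.3, 9.92 and 60.6 against 1.66, 0.89 and 2.72 CPM in small intestine and 5.87 to 17.5 CPM in colon (4.84 ± 0.86, adjusted p 0.0196). Dpp4 levels were lower with GFP in small intestine, whereas 7 of the 14 markers rose there and 2 fell. Dpp4 did not pass in limma-voom (adjusted p 0.122) or on log2 TPM with limma (adjusted p 0.368). Of 14 adventitial and universal fibroblast markers 2 were lower, Fbln1 and Col15a1, and 0 higher (median -0.96). Smooth muscle markers gave 0 calls of 12, with 6 at an unadjusted p under 0.05, and hedgehog targets 0 of 9, with 4, in edgeR, and DESeq2 called 1 and 2, all lower.

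**Figure D4:**
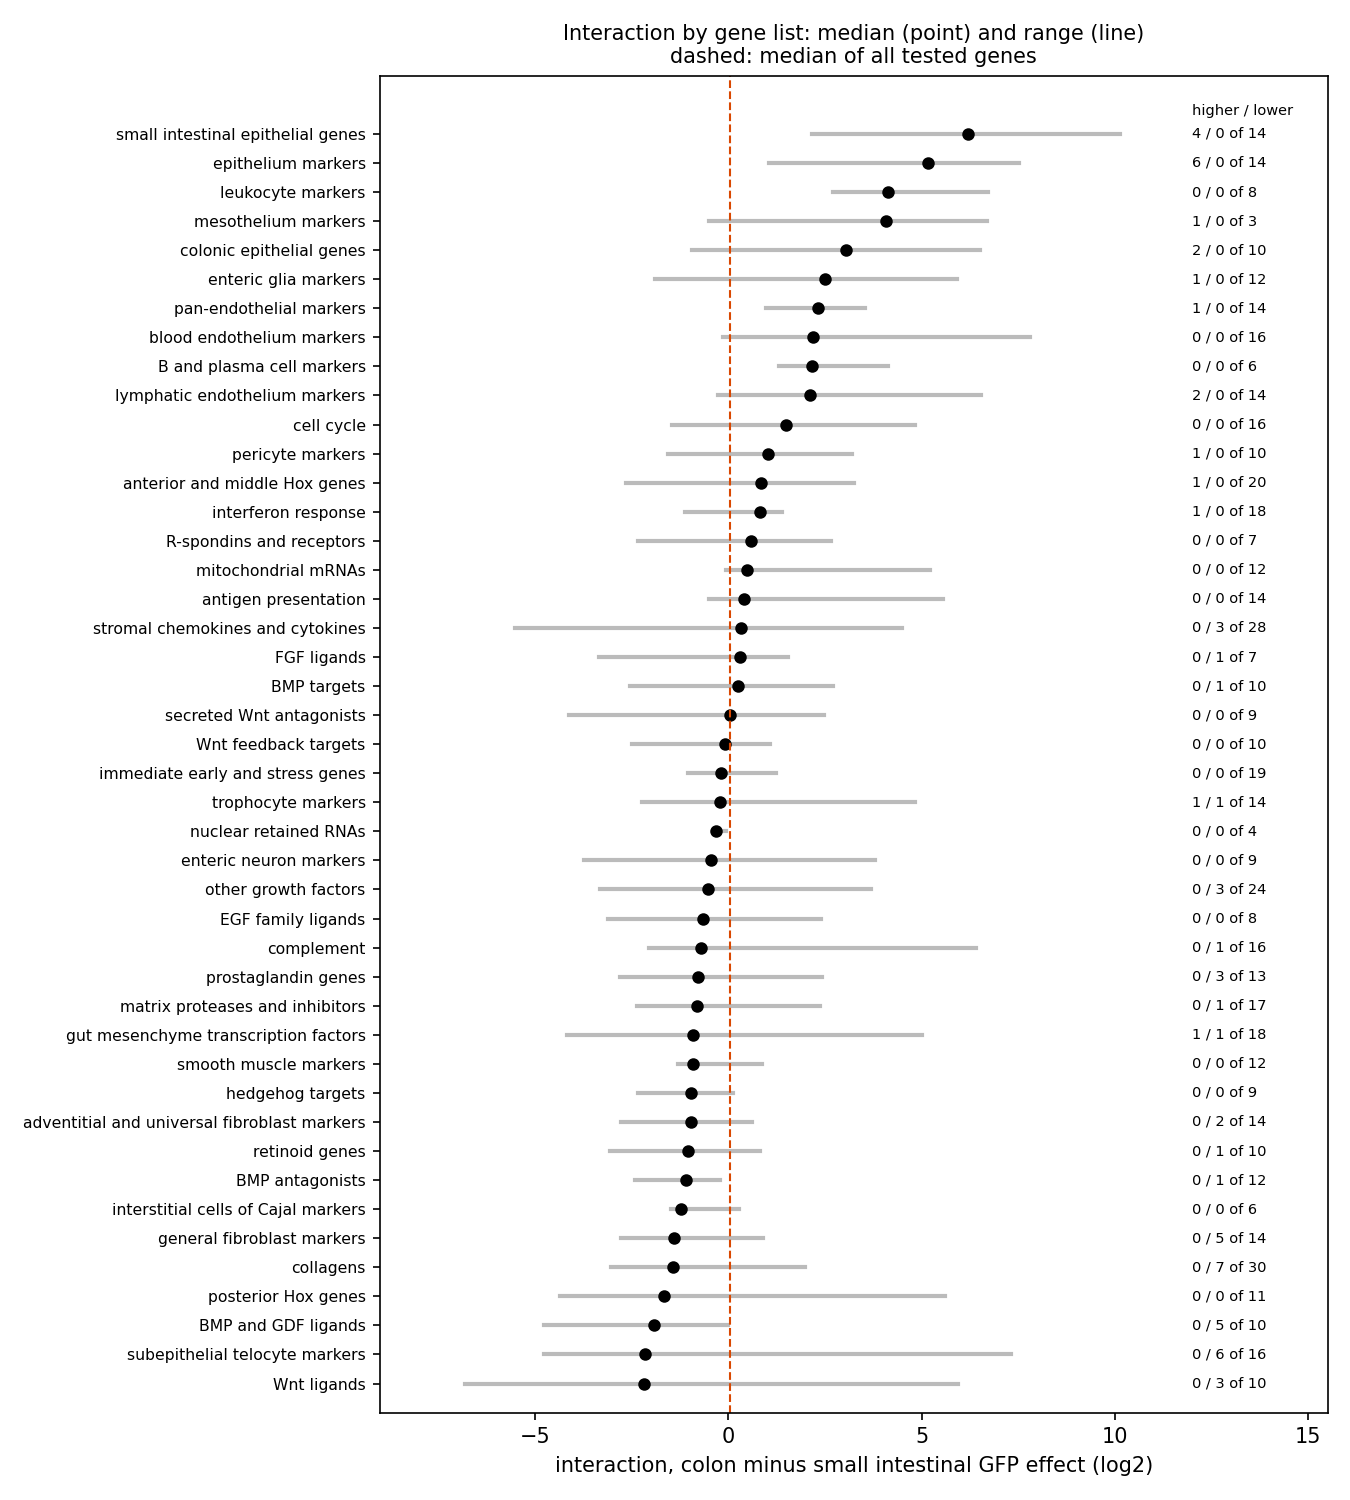
For each gene list with at least 3 tested members the point is the median interaction (log2), the line its range, and the numbers at the right the genes called higher, called lower and tested. Epithelial, leukocyte and endothelial lists lie to the right of the median of all genes, dashed at 0.04, and Wnt ligands, telocyte markers and BMP and GDF ligands to the left.

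Endothelial genes lay on the opposite side. All 14 pan-endothelial markers had an interaction above 0 (median 2.31), 1 was called, and 10 had an unadjusted p under 0.05 against 14.5% of all tested genes. In colon 12 of the 14 rose with GFP and 0 fell, whereas in small intestine 0 rose and 1 fell. The called gene was Tek, the angiopoietin receptor, at 237, 142 and 69.9 against 141, 141 and 106 CPM in small intestine and 79.5, 50.6 and 41.9 against 334, 304 and 266 CPM in colon (2.61 ± 0.52, adjusted p 0.0262). Its small intestinal groups overlapped and its colonic groups did not, but the call held in 7 of 12 fits, with an adjusted p of 0.0778 without small intestine GFP-positive replicate 3.

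Of 14 lymphatic endothelial markers 2 were higher and 0 lower (median 2.11). These genes rose with GFP in both regions, 11 in small intestine and 13 in colon. Nr2f2, a venous and lymphatic transcription factor, lay at 106, 100 and 50.2 against 190, 226 and 110 CPM in small intestine and at 48.8, 44.3 and 39.0 against 365, 389 and 325 CPM in colon (1.99 ± 0.42, adjusted p 0.0314; 0.0915 without colon GFP-negative replicate 3). The defining genes Prox1 and Lyve1 had values of 1.83 and 2.26 and did not pass (adjusted p 0.390 and 0.294).

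Clca3a1, a secreted protein of lymphatic vessels (chr3:144729677-144760977), went in opposite directions, from 113, 42.0 and 28.1 to 6.16, 9.36 and 1.54 CPM in small intestine and from 9.83, 4.45 and 4.56 to 69.0, 51.9 and 43.2 CPM in colon. Its interaction was 6.55 ± 0.94 (adjusted p 0.00949). Blood endothelial markers gave 0 calls of 16 in edgeR (median 2.19, 8 at an unadjusted p under 0.05) and 3 in DESeq2, although 12 fell with GFP in small intestine and 5 in colon. Pkhd1l1, a large membrane protein, was at 2.25 to 14.7 CPM in small intestinal GFP-negative, 10.4 to 20.4 CPM in small intestinal GFP-positive, 1.65 to 4.57 CPM in colonic GFP-negative and 225, 168 and 197 CPM in colonic GFP-positive cells (4.72 ± 0.85, adjusted p 0.0220; 0.0621 without colon GFP-negative replicate 3).

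Summed lymphatic markers were at 369 to 951 CPM in small intestinal GFP-negative and 326 to 464 CPM in colonic GFP-negative cells. In GFP-positive cells they were 12504, 16954 and 4883 CPM in small intestine, lowest in replicate 3, and 19628 to 22933 CPM in colon. Pan-endothelial markers were 1012 to 3649 CPM in small intestinal and 2970.1 to 3539 CPM in colonic GFP-positive cells, against 736 to 2462 and 319.7 to 851 CPM in the GFP-negative cells. The small intestinal groups overlapped for the pan-endothelial sum and the colonic groups did not. Whether the share of endothelial cells sets the values of the genes above was not tested.

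**Figure D5:**
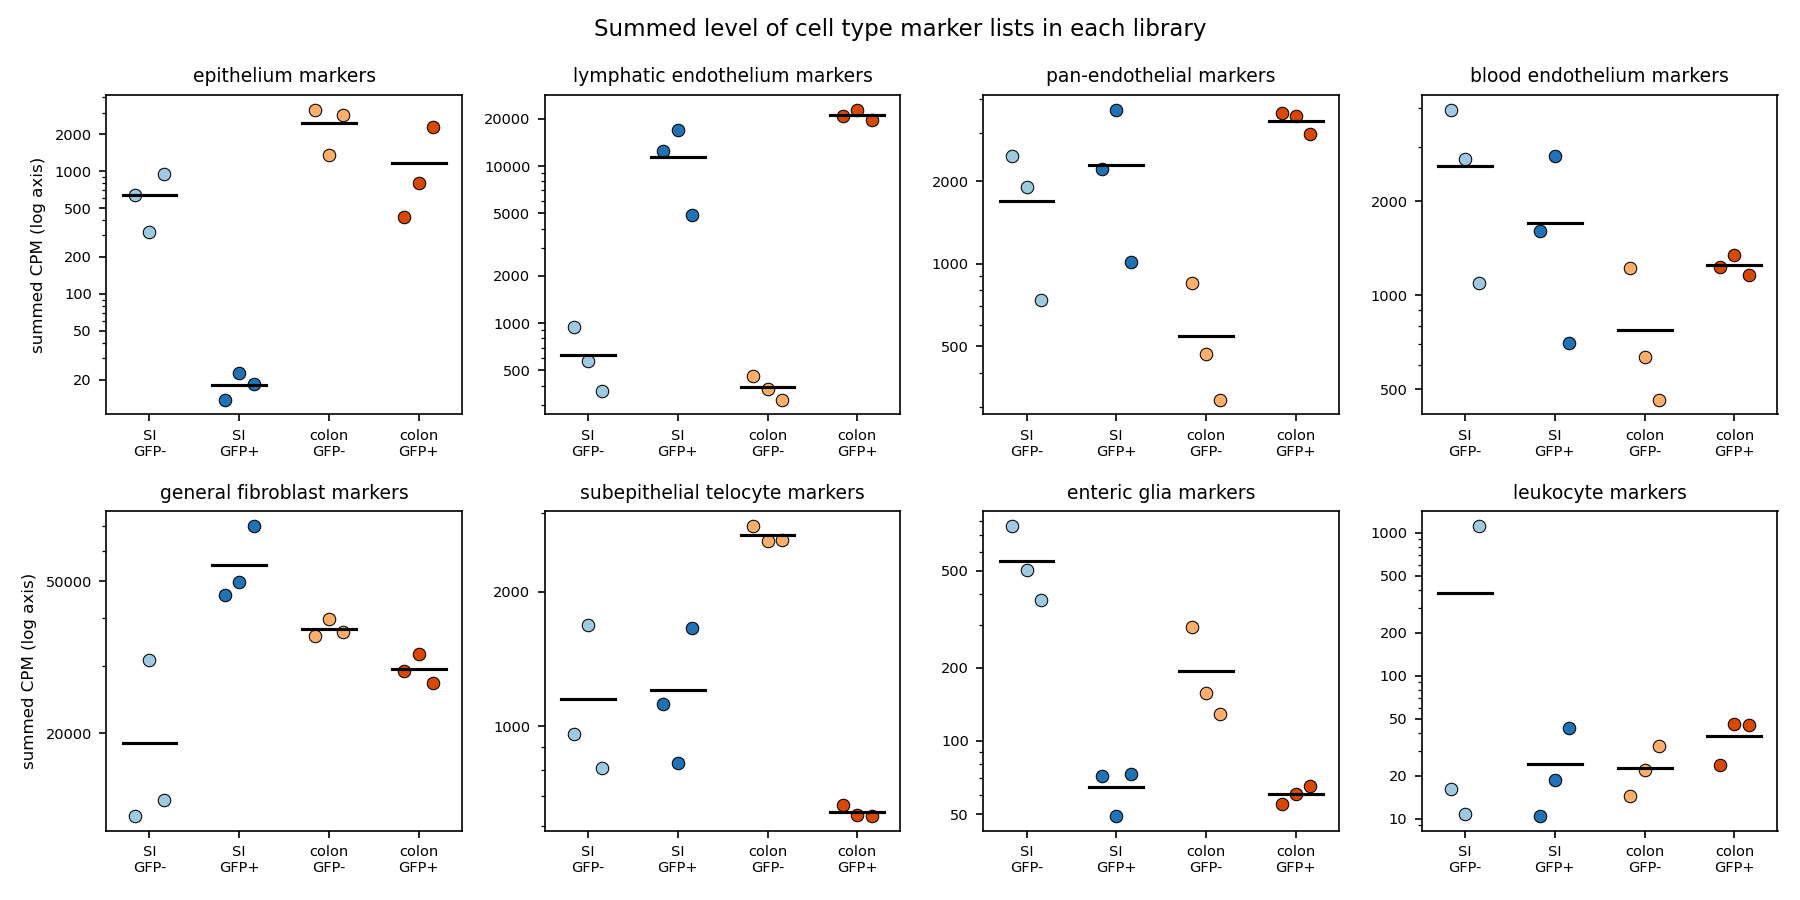
With SI for small intestine, each point is the summed CPM of a marker list in 1 library on a log axis, and each bar the mean of 3. Epithelial markers are at 13.7 to 22.6 CPM in small intestinal GFP-positive cells and at 319 CPM or more in the other groups, telocyte markers are high in colonic GFP-negative cells, and 1 small intestinal GFP-negative library holds leukocyte markers at 1119.8 CPM.

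Epithelial genes made up the most shifted lists, in a sort that gated out EPCAM-positive cells. Of 14 tested epithelium markers 6 were higher and 0 lower (median 5.17, or 4.93 with genes lacking counts in a group set to a bound of 3 counts), and of 14 small intestinal epithelial genes 4 were higher and 0 lower (median 6.21, or 5.53). Krt8, a keratin of simple epithelia, lay at 146, 71.7 and 224 against 1.33, 1.38 and 2.95 CPM in small intestine and at 991, 419 and 874 against 145, 255 and 771 CPM in colon. It was almost gone from small intestinal GFP-positive libraries and overlapped between the colonic groups, with an interaction of 5.34 ± 0.96 (adjusted p 0.0230). Krt19 behaved alike (6.69 ± 1.17, adjusted p 0.0219), as did the tight junction gene Cldn3 (5.58 ± 1.12, adjusted p 0.0314) and the epithelial transcription factor Elf3 (4.87 ± 1.03, adjusted p 0.0422).

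Apob, the apolipoprotein of chylomicrons, lay at 190, 43.5 and 216 against 0.50, 0 and 0.35 CPM in small intestine and at 25.8, 7.99 and 16.3 against 5.604, 3.04 and 11.3 CPM in colon (7.62 ± 1.20, adjusted p 0.0161). The antimicrobial lectin Reg3b had means of 71.5 and 0.26 CPM in small intestine and 108 and 24.5 CPM in colon (5.88 ± 1.03, adjusted p 0.0206). Lct, lactase, was at 44.7, 14.7 and 74.3 against 0, 0.20 and 0.24 CPM in small intestine but at 0 to 1.03 CPM in the 6 colonic libraries, so that its value (10.13 ± 1.78) rests on few colonic counts and was lost without colon GFP-positive replicate 3 (adjusted p 0.116). Phgr1 had 0 counts in small intestinal GFP-positive cells, which at a floor of 3 counts over the group gives an interaction of at least 4.80 (log2).

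Mucosal genes outside these lists showed the same layout. Pigr, which carries IgA across epithelium, had means of 208 and 1.61 CPM in small intestine and 460.02 and 246 CPM in colon (6.14 ± 1.07, adjusted p 0.0220), and Dmbt1, a mucosal scavenger receptor, 132 and 1.68 against 876 and 476 CPM (5.40 ± 1.04, adjusted p 0.0290). Their calls held in 7 and 4 of the 12 fits that left out 1 library, with adjusted p of 0.0704 without colon GFP-negative replicate 2 and 0.0916 without small intestine GFP-positive replicate 3, and neither passed in limma-voom or on log2 TPM. The membrane mucin Muc3 (6.51 ± 1.26, adjusted p 0.0295) and Myo15b (5.83 ± 1.11, adjusted p 0.0290) reversed to -0.18 and -0.04 on the deposited log2 TPM values. With Muc3, the thermogenic and stem cell factor Prdm16 was the other called member of 10 colonic epithelial genes (2.69, adjusted p 0.0389; 0.109 without colon GFP-negative replicate 2). Itgb4, the hemidesmosome integrin, was at 168, 130 and 58.5 against 1.41, 1.08 and 2.48 CPM in small intestine and 58.7, 22.5 and 37.6 against 12.0, 20.07 and 33.9 CPM in colon (5.33 ± 0.75, adjusted p 0.00679).

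Summed epithelium markers were 319 to 955 CPM in small intestinal GFP-negative and 13.7 to 22.6 CPM in GFP-positive cells, where 5 to 9 of the 15 markers were at 0, against 1351 to 3181 CPM in colonic GFP-negative and 426 to 2288 CPM in colonic GFP-positive cells. Their part in the calls was not tested. The direction also depends on the scale, because in absolute CPM Krt8 dropped by more in colon (means 761 and 390.2) than in small intestine (147 and 1.89). On the linear CPM scale the sign of the difference changed for 36 of the 345 called genes, 35 of them higher, and for 6 of the 6 called epithelium markers. Over the fits that left out 1 library, epithelium markers gave 0 to 9 higher calls and small intestinal epithelial genes 0 to 8, with 0 of the latter without small intestine GFP-positive replicate 3, and the calls of Krt8, Krt19, Cldn3, Elf3, Apob and Reg3b held in 7, 7, 5, 4, 10 and 6 of the 12. The limma-voom fits, with or without weights, called 0 of both lists, and on the deposited log2 TPM values 0 epithelium markers and 4 small intestinal epithelial genes were called, with medians of 0.33 and 1.51.

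Markers of other cells could also enter the gate. Leukocyte markers gave 0 calls of 8 in edgeR and in DESeq2 (median 4.14, 1 at an unadjusted p under 0.05), and over the fits that left out 1 library their median ranged from -0.91 to 7.17. B and plasma cell markers gave 0 of 6 in both, with 0 at an unadjusted p under 0.05. Of 12 enteric glia markers 1 was higher (median 2.49), the neuregulin receptor Erbb3, which epithelium also expresses, with means of 75.9 and 1.32 CPM in small intestine and 38.6 and 16.1 CPM in colon (4.53 ± 0.94, adjusted p 0.0382). Of 10 pericyte markers 1 was higher, Mcam, an adhesion molecule of vessel walls, at 142 and 12.6 against 40.2 and 24.9 CPM (2.80 ± 0.56, adjusted p 0.0271). Without small intestine GFP-positive replicate 3 their adjusted p were 0.110 and 0.0800.

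Among 28 stromal chemokines and cytokines 3 were lower and 0 higher. Cxcl13, the chemokine that draws B cells into lymphoid follicles (chr5:95956951-95961068), lay at 12.3, 31.3 and 27.8 against 159, 62.8 and 184 CPM in small intestine and at 34.3, 25.1 and 34.6 against 3.85, 4.62 and 3.20 CPM in colon. GFP-positive cells were the high group in small intestine and the low group in colon, with no overlap in either, and the interaction was -5.52 ± 0.60 (adjusted p 0.00230). Cxcl12, which retains leukocytes through CXCR4, had means of 384 and 409 CPM in small intestine and 828 and 212 CPM in colon (-2.06 ± 0.44, adjusted p 0.0332), and Tnfsf13b, the B cell survival factor BAFF, 28.3 and 23.5 against 107 and 12.5 CPM (-2.82 ± 0.63, adjusted p 0.0425). The last 2 calls held in 3 of the 12 fits each, with adjusted p of 0.0907 and 0.119 without colon GFP-negative replicate 2, while Cxcl13 held in 12.

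Prostaglandin genes were lower in 3 of 13 cases and higher in 0. Hpgd, which inactivates prostaglandin E2, lay at 16.1, 28.4 and 7.40 against 151, 129 and 183 CPM in small intestine and at 57.5, 48.4 and 34.8 against 62.4, 59.3 and 55.5 CPM in colon (-2.81 ± 0.51, adjusted p 0.0196). Ptges, a prostaglandin E2 synthase, and Pla2g4a, which releases its precursor, dropped in colon, with means of 75.1 and 25.3 CPM and of 123 and 21.3 CPM against 46.2 and 55.0 CPM and 70.1 and 38.3 CPM in small intestine (-1.81 ± 0.37 and -1.65 ± 0.35, adjusted p 0.0274 and 0.0345). Breakdown and synthesis genes shared a sign through different arms of the contrast. Their calls held in 7, 4 and 3 of the 12 fits that left out 1 library, with adjusted p of 0.0606 without colon GFP-negative replicate 2 for Hpgd, and of 0.0857 and 0.0985 without colon GFP-positive replicate 2 for the others.

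Of 10 retinoid genes 1 was lower, Rbp4, the plasma carrier of retinol, at 2.75 to 6.06 CPM in the 6 small intestinal libraries and 42.7, 47.1 and 38.3 against 5.49, 2.51 and 4.69 CPM in colon (-3.05 ± 0.52, adjusted p 0.0159; 0.0606 without colon GFP-negative replicate 2). Of 16 complement genes 1 was lower, the protease C1s1 (-1.85 ± 0.39, adjusted p 0.0319), and of 18 interferon response genes 1 was higher, the GTPase Gbp3 (1.29 ± 0.30, adjusted p 0.0458). These 2 calls held in 3 of 12 fits each, with adjusted p of 0.0964 without colon GFP-negative replicate 2 and 0.122 without colon GFP-negative replicate 3. Antigen presentation genes gave 0 calls of 14 in edgeR, with 5 at an unadjusted p under 0.05, and 1 in DESeq2. Immediate early and stress genes gave 0 of 19, with 0 at an unadjusted p under 0.05, and cell cycle genes 0 of 16, with 1, and DESeq2 called 0 in both.

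Regional transcription factors gave few calls. In edgeR 7 of 18 gut mesenchyme factors and 6 of 20 anterior and middle Hox genes had an unadjusted p under 0.05. The share over all tested genes was 14.5%. Osr1, a factor of gut and urogenital mesenchyme (chr12:9570116-9581500), lay at 11.3, 17.9 and 10.6 against 59.2, 41.8 and 97.3 CPM in small intestine and at 66.7, 98.2 and 130 against 25.7, 27.1 and 28.5 CPM in colon. It rose with GFP in small intestine and fell in colon, with an interaction of -4.17 ± 0.47 (adjusted p 0.00230). Its relative Osr2 went the other way, at 2.65, 2.72 and 5.79 against 0.17, 0.10 and 0.35 CPM in small intestine and 5.87, 1.26 and 1.77 against 5.49, 4.75 and 5.26 CPM in colon (4.91 ± 1.02, adjusted p 0.0301; 0.0887 without colon GFP-negative replicate 3). These were 2 of 18 gut mesenchyme factors. Anterior and middle Hox genes gave 1 higher call of 20 with 18 values above 0 (median 0.84): Hoxb5, at 12.7, 11.2 and 8.52 against 5.66, 8.87 and 11.1 CPM in small intestine and 0.88, 1.03 and 0.76 against 3.74, 4.23 and 6.06 CPM in colon (2.72 ± 0.55, adjusted p 0.0266; 0.0850 without colon GFP-negative replicate 3). Posterior Hox genes gave 0 calls of 11 in edgeR and in DESeq2, with 1 at an unadjusted p under 0.05, and 7 of them had no counts in at least 1 group.

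For 25 genes the GFP effect was called in both regions with opposite signs, 14 rising in small intestine and falling in colon and 11 the reverse. Besides Cxcl13, Osr1 and Clca3a1 they included Ahrr, the repressor of the aryl hydrocarbon receptor that senses dietary and microbial ligands, at 16.6, 5.74 and 4.66 against 36.7, 51.1 and 18.5 CPM in small intestine and 12.8, 8.91 and 9.25 against 0.11, 0.66 and 1.14 CPM in colon. Its groups did not overlap in either region, and the interaction was -5.97 ± 0.90 (adjusted p 0.00941). Lrrn2, a leucine-rich membrane protein, lay at 8.90, 11.1 and 6.91 against 23.0, 28.1 and 24.8 CPM in small intestine and 20.5, 26.4 and 27.9 against 9.34, 7.79 and 6.97 CPM in colon (-3.12 ± 0.34, adjusted p 0.00230).

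In the other direction, Rasgrf2, an exchange factor for Ras and Rac, lay at 54.2, 22.1 and 16.4 against 1.00, 0.89 and 1.18 CPM in small intestine and 8.21, 4.57 and 3.29 against 17.1, 24.4 and 14.7 CPM in colon. Neither region's groups overlapped, and the interaction was 6.72 ± 0.69 (adjusted p 0.00230). Fez1, an axon growth protein, had means of 15.8 and 3.62 CPM in small intestine and 6.23 and 21.1 CPM in colon (3.88 ± 0.63, adjusted p 0.0121), and Limch1, an activator of non-muscle myosin, 83.9 and 26.7 against 21.7 and 65.0 CPM (3.24 ± 0.45, adjusted p 0.00472). These 5 genes, like Cxcl13, Osr1 and Clca3a1, were called in all 12 fits that left out 1 library.

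Other genes with large values completed the named set. Chodl, the membrane lectin chondrolectin, rose from 4.93, 4.91 and 1.29 to 94.7, 33.8 and 128 CPM in small intestine and stood at 7.19, 7.99 and 3.55 against 4.72, 1.19 and 1.49 CPM in colon (-5.81 ± 0.95, adjusted p 0.0161; 0.0542 without colon GFP-negative replicate 2). Frem1, a basement membrane protein, had 11.7, 17.0 and 9.97 against 25.5, 15.9 and 32.7 CPM in small intestine and fell from 19.1, 19.1 and 21.8 to 1.32, 1.19 and 1.94 CPM in colon (-4.67 ± 0.47, adjusted p 0.00230). Cybrd1, a ferric reductase of iron uptake, likewise fell in colon, from 60.0, 69.7 and 53.2 to 2.42, 2.64 and 2.29 CPM, with 16.8 to 49.4 CPM in the small intestinal libraries (-4.20 ± 0.53, adjusted p 0.00335).

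Gnai1, an inhibitory G protein subunit and another of the 25 genes with opposite effects, had means of 22.9 and 64.5 CPM in small intestine and 94.9 and 19.97 CPM in colon (-3.73 ± 0.42, adjusted p 0.00230). Rerg, Lin7a, Samd5 and Pianp were lower too, at -4.45, -4.42, -4.42 and -4.17. On the higher side St8sia6, a sialyltransferase, lay at 45.8, 20.7 and 57.2 against 26.5, 37.5 and 10.04 CPM in small intestine and 6.16, 3.77 and 3.80 against 93.9, 90.7 and 86.7 CPM in colon (5.04 ± 0.66, adjusted p 0.00454). Mecom, a zinc finger transcription factor, had means of 39.9 and 0.30 CPM in small intestine and 13.4 and 8.11 CPM in colon (6.18 ± 0.95, adjusted p 0.0104), but did not pass in limma-voom (adjusted p 0.217) or on log2 TPM (adjusted p 0.539). Lypd8, a surface protein of colonic epithelium, and Wipf3 were higher at 5.22 ± 0.95 and 5.06 ± 1.103, with adjusted p of 0.0752 without small intestine GFP-positive replicate 3 and 0.146 without colon GFP-negative replicate 2.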

How the data were processed

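Total RNA of sorted stromal cells was sequenced after ribosomal RNA removal, per the labels' protocols. Per the submitters' processing notes the authors used Salmon 1.1.0 and R 3.6.1 with mm10; annotation, filters and rounding are not given in the sources used here. The authors deposited an expected count per gene and library; all 384624 cells held whole numbers, here read as rounded estimates. A log2(TPM + 1) table, also deposited by the authors, served as an alternative. GENCODE M21 (GRCm38) supplied symbols and coordinates for 31974 of 32052 identifiers and lacked 78.

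One mean per group was fitted to the counts with edgeR 4.0.16 in R 4.3.3 (TMM, robust quasi-likelihood, filterByExpr at a minimum count of 10). No replicate block was used in the main fit, since pairing was not established for all 12 libraries, and its p-values ignore any pairing. Alternatives used limma 3.58.1, DESeq2 1.42.0, other factors and filters, blocks, and leaving out each library. No list was put to a set test: lists are described by counts and medians. Fold floors were 3 counts over a group and cover counting error only. Library totals were 6489835 to 12286054. In simulated counts the test recovered 48% of 100 genes with a true absolute log2 interaction of 2, and 67% of 100 with 4. The changed genes were drawn from those with higher counts, and 5 unchanged genes were called. Each simulated gene had the same spread in both regions, unlike the data, where small intestinal replicates differed more. Every change was placed in colonic GFP-positive cells, so these rates may not hold for the data. A gene that was not called is thus not shown to have equal GFP effects.

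Members, lists, motifs and tests were chosen with earlier results of these data known. The named genes were the tested niche members, the 15 called genes with the largest and the 15 with the smallest values (mean log2 CPM of at least 3, at least 10 counts per group), up to 4 called members of each other list by adjusted p, and the 4 in each direction with the strongest opposite GFP effects. Their calls are 75 of 149. One named gene is not reported here.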

Additional observations from a re-analysis of the deposited data

Results flagged for a closer look

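The interaction term differed from 0 for 345 genes at an adjusted p under 0.05 (edgeR's quasi-likelihood test), which is 2.06% of those tested. That is a difference of the GFP effect between the gut regions tested directly.

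Within these, 9 named genes had GFP effects called in both regions with opposite signs. Ahrr (-5.97), Cxcl13 (-5.52), Osr1 (-4.17), Gnai1 (-3.73) and Lrrn2 (-3.12) rose with GFP in small intestine and fell in colon, and the values are log2 interactions. Rasgrf2 (6.72), Clca3a1 (6.55), Fez1 (3.88) and Limch1 (3.24) fell in small intestine and rose in colon. All 9 were called in each of the 12 fits that left out 1 library.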

How the results depend on the processing

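Counts are given as called, higher and lower. RLE factors gave 362, 205 and 157, no composition factor 326, 183 and 143, a minimum count of 30 gave 402, 235 and 167, and edgeR without robust estimation 346, 203 and 143. No filter gave 514, 270 and 244, DESeq2 1103, 670 and 433, limma-voom 174, 64 and 110, limma-voom with sample quality weights 537, 243 and 294, and protein coding genes alone 467, 276 and 191. The deposited log2 TPM gave 167, 54 and 113, with 77 of the 345 genes shared and 19 changing sign, among them Muc3 at -0.18 and Myo15b at -0.041. The weight per region, added after seeing the data, gave 261, 108 and 153. The share called higher, 56.5%, became 36.8% with limma-voom, 45.3% with sample weights, 32.3% on log2 TPM and 41.4% with region weights. The cause of these shifts was not tested. Leaving out 1 library gave 69 to 1044 calls, 29 to 447 higher and 37 to 597 lower, and 67 to 345 of the 345 genes were shared with these fits. Of 75 called named genes, 24 kept the call in all 12 such fits and 51 lost it in at least 1. Of the same 75, limma-voom did not call 30, the region weight 25, log2 TPM 37 and DESeq2 0. Those not called on log2 TPM included Wnt5a, Bmp4, Tek, Nr2f2, Itgb4 and Dpp4.

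Deviations of libraries with the same replicate number correlated at 0.32, 0.18 and 0.17 within small intestine and at 0.01, 0.05 and 0.09 within colon, and positive and negative libraries of a number mostly share a token in their descriptions whose meaning is not stated. These pairs within a region exceeded 0.1 in small intestine and not in colon. All were positive, and a low correlation cannot show that libraries were not paired. The pairing of the libraries was therefore not settled for all 12. The replicate 3 libraries of both regions also share a token. Among them, small intestinal GFP-negative cells correlated at 0.22 with colonic GFP-negative and 0.12 with colonic GFP-positive cells. Small intestinal GFP-positive cells of replicate 3 correlated with the same libraries at 0.04 and 0.05. With a replicate block for the number within each region 330 genes were called, 223 higher (67.6%) and 107 lower, and 201 were shared. Of the 75 called named genes 19 were not called with this replicate block, at adjusted p of 0.0508 to 0.109: Bmp2, Bmp4, Bmp5, Twsg1, Wnt5b, Pdgfra, Hgf, Col5a2, Mmp3, Cxcl12, C1s1, Hoxb5, Prdm16, Samd5, Erbb3, Elf3, Phgr1, Dmbt1 and Myo15b. With a block across regions 535 were called, 346 higher (64.7%) and 189 lower. Depth limits genes at a few counts, such as Lct and Fabp1 in colon.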

Other observations

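Several called genes outside the named set are given here, chosen after their values were seen and from no fixed list. Among matrix genes some were lower: Postn, periostin, had means of 209 and 398 CPM in small intestine and 3059 and 757 CPM in colon (interaction -2.94 ± 0.39, adjusted p 0.00454), Ogn, osteoglycin, 98.5 and 358 against 596 and 267 CPM (-3.02 ± 0.41, adjusted p 0.00468), and the collagen cross-linking enzyme Lox 45.6 and 153 against 82.9 and 60.1 CPM (-2.20 ± 0.38, adjusted p 0.0159). The microfibril gene Fbn2 was at 16.1, 24.5 and 10.5 against 22.8, 26.2 and 29.4 CPM in small intestine and fell from 64.8, 72.0 and 51.3 to 9.999, 5.55 and 6.29 CPM in colon (-3.71 ± 0.44, adjusted p 0.00286). Other matrix genes were higher, Hmcn1, hemicentin, with 415 and 176 against 43.1 and 163 CPM (3.16 ± 0.38, adjusted p 0.00286) and the matricellular Ccn3 with 10.8 and 6.03 against 16.6 and 58.1 CPM (2.64 ± 0.37, adjusted p 0.00530). Lox, unlike the other matrix genes named here, was not called in every fit that left out 1 library. The receptor Notch1 rose with GFP in colon, from 103, 74.3 and 66.0 to 539, 585 and 480.2 CPM, but had 295, 219.7 and 130 against 279, 389 and 119 CPM in small intestine (2.43 ± 0.55, adjusted p 0.0431), and it too was not called in every such fit. Ace, the angiotensin-converting enzyme, fell in small intestine from 503, 346 and 222 to 31.3, 37.4 and 34.0 CPM and had 121, 80.6 and 52.8 against 130, 95.5 and 98.7 CPM in colon (3.73 ± 0.46, adjusted p 0.00311). The Slit receptor Robo1 (-2.72 ± 0.34, adjusted p 0.00311) and the axon adhesion molecule L1cam (3.61 ± 0.42, adjusted p 0.00247) had opposite signs.

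Beside Ahrr, genes induced by the aryl hydrocarbon receptor were read after its value was seen. Ugt1a6a was lower, with means of 13.2 and 48.3 CPM in small intestine and 21.1 and 13.0 CPM in colon (-2.56 ± 0.47, adjusted p 0.0196). Cyp1a1 lay at 8.54, 2.51 and 3.06 against 42.3, 64.5 and 14.5 CPM in small intestine and at 0 to 0.80 CPM in the 6 colonic libraries, and did not pass (adjusted p 0.0723). Cyp1b1, Tiparp, Nqo1 and the receptor gene Ahr had interactions of -1.29, -0.65, 0.66 and -0.08 and did not pass.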
